A study of Mus musculus with 6 samples.

Results

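The genes described here are those of the mouse MHC class II system. They are the chains H2-Aa, H2-Ab1 and H2-Eb1, the invariant chain Cd74, the peptide editor chains H2-DMa, H2-DMb1 and H2-DMb2, the editor's inhibitor chains H2-Oa and H2-Ob, and the transactivator Ciita. They were taken by symbol from the deposited table, which held all 10 among 21847 genes, and all 10 passed the filter on low counts that left 14605 genes. Sorted mouse spleen cells, labelled as macrophages, had been cultured for 3 days with human cord tissue mesenchymal stromal cells (MSCs) carrying Qtracker, a fluorescent particle label. The MSCs had been plated on fibronectin, and the splenocytes had been depleted of T cells before the culture. The Qtracker positive group (3 libraries), which the labels describe as having engulfed MSCs, was compared with the Qtracker negative group (3 libraries), which had not. Both groups had the same culture with MSCs and the same CD11b gate (Ly6G negative in one label and Ly6C negative in another), so no library came from cells kept without MSCs. The sources used here do not give strain, age or genotype. The design text calls the replicates biological and paired but names no animals or donors, so the p-values reflect library-to-library spread, some of which may be technical.

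MHC class II molecules are pairs of an alpha and a beta chain that show peptides from endosomes to CD4+ T cells. Cd74 holds new molecules ready and is cut down in the endosome, H2-DM then exchanges its last fragment for a peptide, and H2-O holds H2-DM back. B cells, dendritic cells and activated macrophages carry class II, while H2-O is best known from B cells and some dendritic cells. Ciita does not bind DNA itself. It is recruited to the X and Y boxes shared by these promoters, where the RFX and NF-Y complexes sit.

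The promoter sequences are shown because they carry the shared boxes and because H2-DMb1 and H2-DMb2, whose levels parted between the groups, have much the same one. The RefSeq table (GRCm38.p6, from 250 bases before to 50 bases after each gene start) held 7 of the 10 members, and 61-base windows of 6 are printed 5′ to 3′ on the gene's strand. Capitals mark the Y box core GATTGG, the stretch AACNNATGATG across the X and X2 boxes and, in H2-Aa, the palindrome TGACGTCA. The motifs were chosen after these sequences had been seen, and AACNNATGATG is the consensus of the 4 members that hold ATGATG up to 20 bases before GATTGG, so that these 4 hold it is no finding.
H2-Aa: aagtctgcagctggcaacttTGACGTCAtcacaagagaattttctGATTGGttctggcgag
H2-Eb1: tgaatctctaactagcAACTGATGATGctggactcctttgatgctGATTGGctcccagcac
H2-DMb1: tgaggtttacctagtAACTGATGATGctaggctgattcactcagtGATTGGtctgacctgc
H2-DMb2: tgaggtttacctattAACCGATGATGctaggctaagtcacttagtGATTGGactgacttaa
H2-Oa: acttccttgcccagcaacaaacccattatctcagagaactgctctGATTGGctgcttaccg
H2-Ob: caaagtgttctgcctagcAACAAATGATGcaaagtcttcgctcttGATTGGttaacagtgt

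The windows lie on chromosome 17 at chr17:34287857-34287917 (H2-Aa, minus strand) and, on the plus strand, at chr17:34305762-34305822 (H2-Eb1), chr17:34153084-34153144 (H2-DMb1), chr17:34145113-34145173 (H2-DMb2), chr17:34092290-34092350 (H2-Oa) and chr17:34238802-34238862 (H2-Ob). GATTGG began 44 to 91 bases before the RefSeq gene start in these 6. The gene positions given below are from GENCODE M21, which starts H2-DMb1 and H2-DMb2 farther upstream. The windows of these 2 genes therefore lie wholly inside the positions given for them. Of 32851 promoters of the same length 16.1% held it on either strand. H2-Eb1, H2-DMb1, H2-DMb2 and H2-Ob also held AACNNATGATG, with 16 to 19 bases between it and GATTGG, a stretch found on either strand of 0.137% of promoters. TGACGTCA, which reads the same on both strands, was in 1.79% of promoters. The marked motifs did not overlap each other, and H2-Eb1 had a second GATTGG on the opposite strand. A match is a description of these letters only. The windows of H2-DMb1 and H2-DMb2 were alike at 52 of 61 bases (85.2%), while any other 2 windows shared 26.2% to 47.5%. H2-DMa, the seventh member in the table, held GATTGG only 199 bases before its second listed start.

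Library totals ran from 33943090 to 55506993 estimated counts, and the 10 genes together took 0.123% to 1.8% of them. Replicate 1 stood apart from replicates 2 and 3. Over 4122 genes with 500 to 2000 counts on average, the median absolute log2 difference was 0.45 to 0.455 between negative replicate 1 and the other negative libraries and 0.286 to 0.297 between the positive ones, against 0.0549 and 0.0857 between replicates 2 and 3. Negative replicate 1 also held more B cell and fewer macrophage and neutrophil RNAs than the other negative libraries. The sum of 12 B cell markers there was 6560 CPM (counts scaled to the TMM-adjusted library size), against 2186 and 2289 in negative replicates 2 and 3. For 9 macrophage markers the sums were 557, 3851 and 3750 CPM, and for 8 neutrophil markers 2848, 63839.6 and 63936 CPM. Positive replicate 1 differed in the class II genes too. The 7 general members summed to 1339 CPM there, against 5779 and 5727 CPM in positive replicates 2 and 3. In negative replicates 1, 2 and 3 they summed to 12783, 4903 and 5074 CPM. The 9 macrophage markers summed to 10100.7, 11842 and 11788 CPM in positive replicates 1, 2 and 3, and the 12 B cell markers to 264, 345 and 346 CPM. The members are therefore described pair by pair.

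The class II system split by gene. H2-Oa, H2-Ob and H2-DMb2, the members of B cell type, fell in Qtracker positive libraries in every pair, by about 6 to 31 times. The general members H2-Aa, H2-Ab1, H2-Eb1 and Cd74 were about 10 to 14 times lower in the positive library of pair 1 but within 1.4 times of the negative library in pairs 2 and 3. Ciita lay between, lower in all 3 pairs without passing the test.

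By edgeR's quasi-likelihood test, with the replicate number as a block, and Benjamini-Hochberg adjustment over all 14605 genes, 3 of the 10 members were called lower and 0 higher. Of all genes tested 16.3% were called lower, 18.5% higher and 34.9% in either direction. No member was higher at an unadjusted p under 0.05 either, and DESeq2 and limma-voom called 0 higher and 4 lower, where they called 25.1% and 19.5% of all genes lower. The same 3 members were called lower with median-of-ratios factors (17.0% of all genes lower), upper quartile factors (18.1%), library totals alone (22.7%), no filter (9.2%) and a stricter filter (17.8%). They and Ciita were called lower from the authors' normalized values (17.3%) and without the block (20.9%). The median log2 fold change was -1.11 over the 10 members and -0.01 over all genes. In 6 members every positive library lay below every negative one, as in 29.4% of all genes, and in 0 members above, against 30.0%. In pair 1, 9 of the 10 were lower by more than 2-fold, against 24.3% of all genes. In pairs 2 and 3 only Ciita, H2-Oa, H2-Ob and H2-DMb2 were, against 21.2% and 21.6%. Lower in all 3 pairs were 6 of the 10, against 36.0% of all genes. A fall in bulk RNA cannot tell fewer cells of a type from less RNA per cell.

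**Figure D1:**
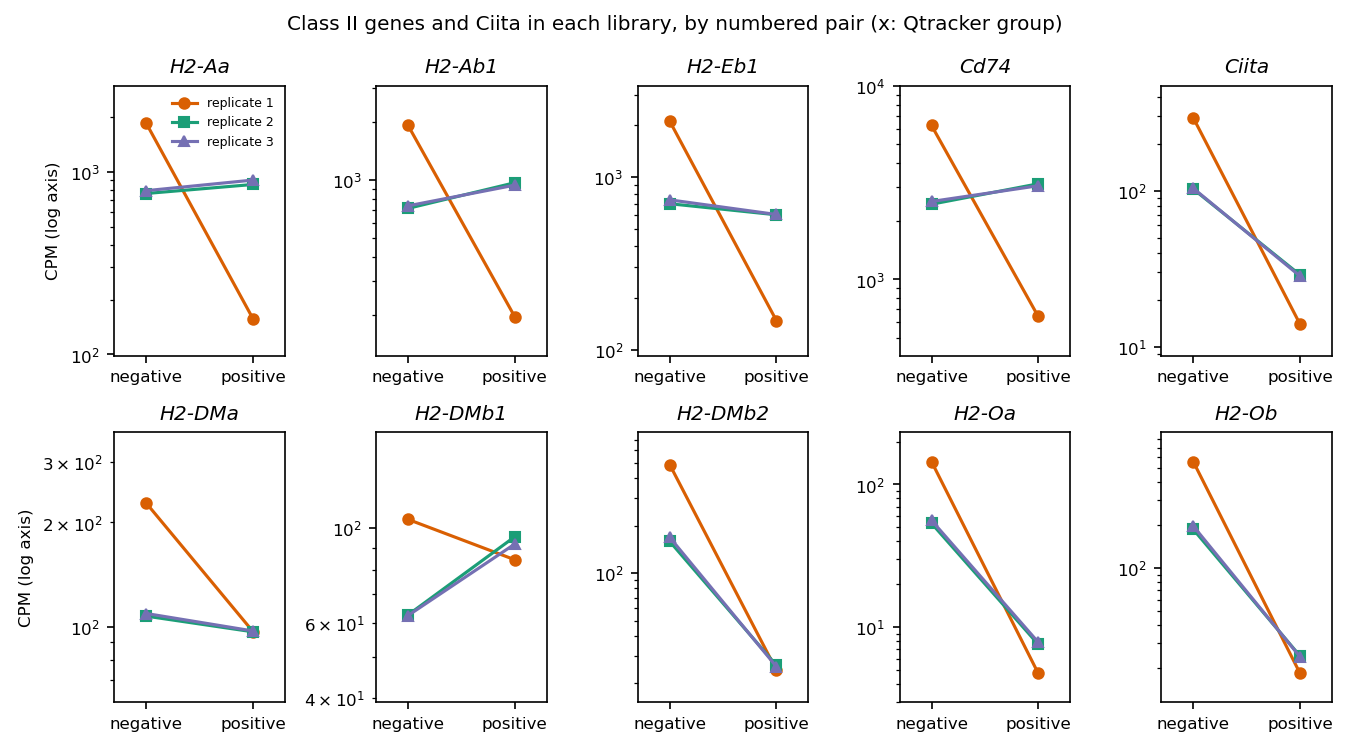
CPM (log axis) of the 10 genes in each library, with Qtracker negative at the left and positive at the right of each panel and a line joining the libraries of a numbered pair. The lines of replicates 2 and 3 nearly coincide; the line of replicate 1 slopes down in every panel, those of H2-DMb2, H2-Oa, H2-Ob and Ciita slope down by more than 2-fold in all 3 pairs, and H2-Eb1 and H2-DMa slope down slightly along the lines of replicates 2 and 3.

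H2-Ob, on chromosome 17 from 34238903 to 34254414 (mm10), encodes the beta chain of H2-O. It stood at 558, 187.5 and 197.7 CPM in negative replicates 1, 2 and 3 and at 18.5, 24.4 and 24.1 CPM in positive replicates 1, 2 and 3. The groups did not overlap, and the positive libraries lay close together while negative replicate 1 was about 3 times the other negatives. The group means were 314 ± 211 and 22.3 ± 3.33 CPM (SD, n = 3), and the log2 fold change was -3.61 ± 0.54 (standard error, edgeR adjusted p = 0.0201).

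H2-Oa, the alpha chain, from 34092340 to 34095234, behaved alike at a lower level. Its negative libraries held 144.7, 53.4 and 56 CPM and its positive libraries 4.73, 7.56 and 7.82 CPM. It fell by 3.50 ± 0.57 on the log2 scale (edgeR adjusted p = 0.0237). With 179 counts in positive replicate 1, its lowest library, H2-Oa was still well above 0, so depth did not limit the comparison. H2-Oa counts per H2-Ob count were 0.259, 0.285 and 0.283 in the negative and 0.256, 0.31 and 0.325 in the positive libraries, ranges that overlapped.

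H2-DMb2, from 34143307 to 34151555, is the beta chain gene of H2-DM that lies next to H2-DMb1. It held 487, 158.8 and 168.4 CPM in the negative and 24.2, 26 and 25.5 CPM in the positive libraries. Its positive libraries were nearly equal, and none reached any negative library. It fell by 3.21 ± 0.46 on the log2 scale (edgeR adjusted p = 0.0191). H2-Eb2, a class II beta chain gene outside the 10, also fell, with 140.8, 51.4 and 53.2 CPM in the negative and 3.44, 7.48 and 6.95 CPM in the positive libraries (log2 fold change -3.64 ± 0.68, edgeR adjusted p = 0.0299).

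In pair 1 the 3 B cell type members changed by -4.33 to -4.92 on the log2 scale and in pairs 2 and 3 by -2.61 to -3.04. Their edgeR calls were lost without replicate 2 (adjusted p from 0.0597 to 0.0632), a setting in which 1.18% of genes were called lower. They were also lost without replicate 3 (0.0724 to 0.0735) or with the counts of replicates 2 and 3 added together (0.0674 to 0.0709), settings in which edgeR called 0.0% of genes. DESeq2 called all 3, Ciita and H2-Eb1 lower in each of those settings, where it called 12.0%, 11.8% and 12.2% of genes lower.

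**Figure D2:**
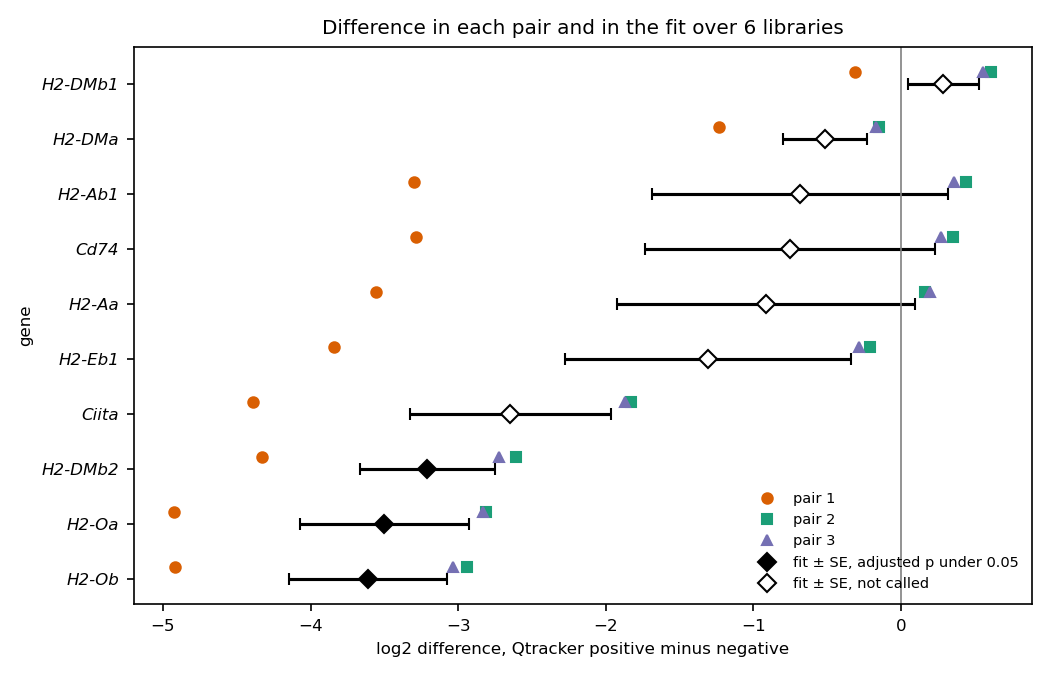
Log2 difference between the Qtracker positive and negative library of each pair (coloured symbols) and the fitted log2 fold change with its standard error (diamonds, filled where the adjusted p was under 0.05). Pair 1 lies to the left of pairs 2 and 3 for every gene; only H2-DMb2, H2-Oa and H2-Ob are filled.

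H2-Ab1 (34257689 to 34269419) and H2-Aa (34282744 to 34287823) encode the beta and alpha chains of the I-A molecule, and H2-Eb1 (34305867 to 34316674) the beta chain of I-E. The symbols H2-Ea and H2-Ea-ps were looked for and not found, so the alpha chain of I-E is not described. H2-Ab1 stood at 1932, 715.1 and 737 CPM in negative replicates 1, 2 and 3 and at 196, 972 and 944 CPM in positive replicates 1, 2 and 3. Negative replicate 1 was the highest library and positive replicate 1 the lowest, with the other 4 between them and the positive ones the higher. The fitted log2 fold change was -0.69 ± 1.00 (edgeR adjusted p = 0.616). H2-Aa had 1849.8, 762 and 790.1 CPM in the negative and 157, 854 and 903 CPM in the positive libraries, and its fitted change was -0.91 ± 1.01 (edgeR adjusted p = 0.51).

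H2-Eb1 differed from both in pairs 2 and 3, where the positive library was the lower. It stood at 2108, 701 and 738 CPM in the negative and 147.2, 604.7 and 607 CPM in the positive libraries, with no overlap between the groups. The fitted change was -1.31 ± 0.97 (edgeR adjusted p = 0.341). Over pairs 1, 2 and 3 the log2 differences were -3.84, -0.21 and -0.28 for H2-Eb1, -3.56, 0.16 and 0.19 for H2-Aa and -3.30, 0.44 and 0.36 for H2-Ab1.

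Cd74, on chromosome 18, encodes the invariant chain and was the most abundant of the 10. It held 6267, 2452 and 2533 CPM in the negative and 644, 3127 and 3055 CPM in the positive libraries. As with H2-Ab1, both replicate 1 libraries were the extremes, and the other positive libraries exceeded the other negative ones. The fitted log2 fold change was -0.75 ± 0.98 (edgeR adjusted p = 0.577). H2-Aa, H2-Ab1, H2-DMb1 and Cd74, 4 of the 10, were lower in pair 1 and higher in pairs 2 and 3, a pattern of 9.07% of all genes.

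H2-DMa (34119541 to 34139101) and H2-DMb1 (34153072 to 34160230) encode the general chains of the peptide editor and had the smallest log2 fold changes of the 10. H2-DMa stood at 227.5, 107.2 and 109 CPM in the negative and at 96.8, 96.6 and 97.1 CPM in the positive libraries. The positive libraries were nearly equal and lay below all negative ones, but the difference did not pass the test (-0.51 ± 0.28, edgeR adjusted p = 0.226). H2-DMb1 held 105, 62.6 and 62.4 CPM in the negative and 84.4, 95.6 and 91.9 CPM in the positive libraries. These ranges overlapped through negative replicate 1, and the fitted change was 0.29 ± 0.24 (edgeR adjusted p = 0.398). Its sign turned to -0.06 with library totals alone as scaling, which moved the median of all genes to -0.36.

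Without replicate 1 the general members took opposite sides by edgeR. H2-Aa (0.19), H2-Ab1 (0.41), Cd74 (0.32) and H2-DMb1 (0.60 on the log2 scale) were called higher, and H2-Eb1 (-0.24) and H2-DMa (-0.15) lower, with adjusted p from 0.000102 to 0.0179. The B cell type members and Ciita were called lower as well. In that setting the spread came only from replicates 2 and 3. These lay close together (0.0549 apart among negative and 0.0857 among positive libraries, as the median absolute log2 difference given above), and whether they are independent of each other was not tested, so these calls may rest on little more than 1 replicate. There edgeR called 72.9% of 14932 genes, 37.1% higher and 35.8% lower. DESeq2 made the same member calls, with 29.8% of genes higher and 30.0% lower.

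Ciita, on chromosome 16 from 10480059 to 10528418, encodes the class II transactivator. It stood at 294.1, 102.7 and 103.9 CPM in the negative and 14, 28.9 and 28.4 CPM in the positive libraries. Every positive library was below every negative one, by 21, 3.55 and 3.66 times in pairs 1, 2 and 3. The group means were 167 ± 110 and 23.8 ± 8.48 CPM (SD, n = 3). The fitted log2 fold change was -2.65 ± 0.68, and its edgeR adjusted p of 0.0533 missed the threshold of 0.05. It was called lower without the replicate block (adjusted p = 0.00998), by DESeq2 (3.91e-05), by limma-voom (0.0365) and without replicate 1 (2.59e-06). The count is per gene, so the promoters from which Ciita is transcribed in B cells, dendritic cells and interferon-treated cells were not separated.

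Ratios within a library do not depend on the scaling between libraries. Ciita counts per 1000 H2-Ab1 counts were 152, 143.7 and 141 in the negative libraries and 71.3, 29.8 and 30.1 in the positive ones. They were thus lower in all positive libraries, and lower in positive replicates 2 and 3 than in positive replicate 1. H2-DMb2 made up 82.3%, 71.7% and 73% of the counts of H2-DMb1 and H2-DMb2 in the negative and 22.3%, 21.4% and 21.7% in the positive libraries. The share was 75.7% ± 5.77 and 21.8% ± 0.468 (SD, n = 3), with 95% Wilson intervals of at most 1.27 percentage points to each side that cover counting error only. H2-Ob counts as a percentage of those of H2-DMb1 and H2-DMb2 were 94.2, 84.7 and 85.7 in the negative and 17, 20 and 20.5 in the positive libraries, so the inhibitor chain was lower against the editor chains in each pair. H2-Oa was 49.8% to 63.6% of H2-DMa in the negative and 4.89% to 8.05% in the positive libraries.

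The I-A chains and the invariant chain had closer ratios. Cd74 counts per H2-Ab1 count were 3.24 to 3.44 in the negative and 3.22 to 3.28 in the positive libraries, which overlapped, although both genes differed almost 10-fold between negative and positive replicate 1. H2-Aa counts per H2-Ab1 count were 0.958 to 1.07 in the negative and 0.802 to 0.956 in the positive libraries. These ranges did not overlap, though only narrowly, with 0.9576 the lowest negative and 0.9565 the highest positive value. H2-Eb1 counts per H2-Ab1 count were 0.98 to 1.09 in the negative and 0.622 to 0.751 in the positive libraries, with no overlap. With 3 libraries against 3 a two-sided exact permutation test of a ratio cannot give a p below 0.1, so these ratios are described without a test.

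**Figure D3:**
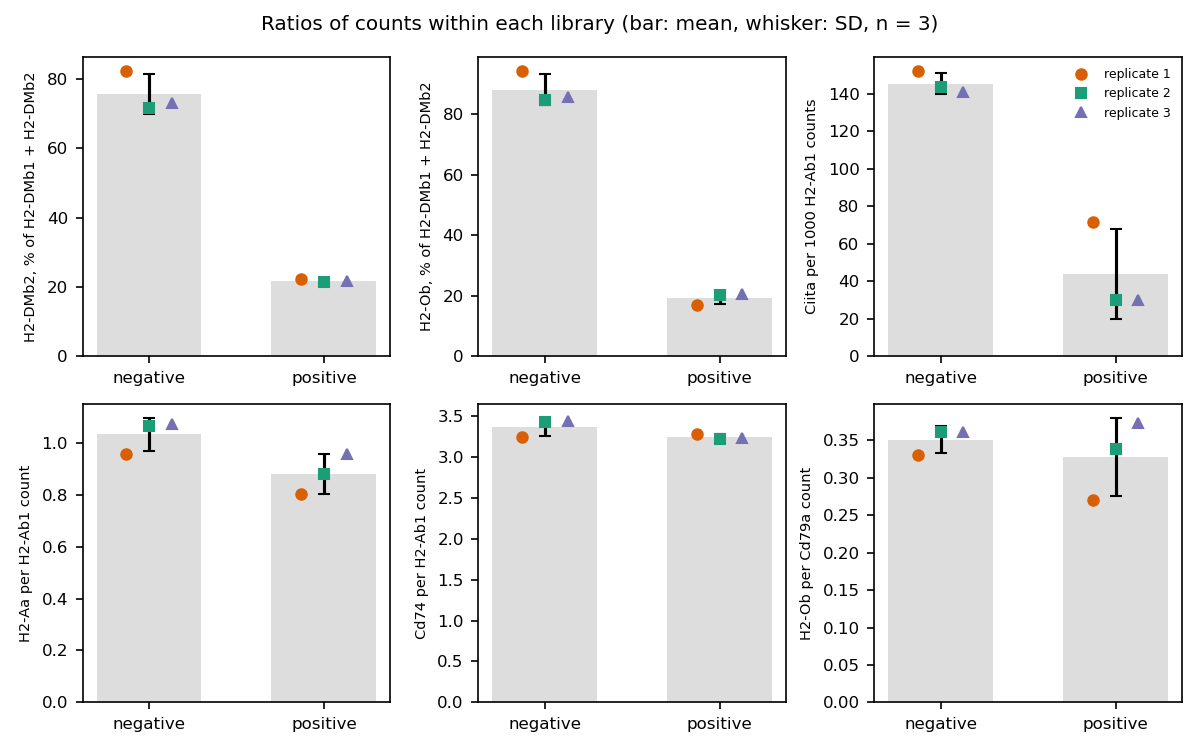
Ratios of counts within each library, with points for replicates 1, 2 and 3, bars for the group mean and whiskers for the SD (n = 3). H2-DMb2 and H2-Ob as a percentage of H2-DMb1 plus H2-DMb2 and Ciita per 1000 H2-Ab1 counts are lower in all 3 positive libraries, while Cd74 per H2-Ab1 count and H2-Ob per Cd79a count overlap between the groups. H2-Aa per H2-Ab1 count is also lower in all 3 positive libraries, by a narrow margin.

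H2-DMb1 and H2-DMb2 are related copies, and 31.4% of the 31-base words in H2-DMb1 transcripts also occur in those of H2-DMb2, so part of their reads was assigned by estimation. With their counts summed to 1 row the log2 fold change was -1.42 (edgeR adjusted p = 0.0642). H2-Eb1 shares 0.71% of its words with H2-Eb2. The sources used here do not say whether strand entered the counting, so reads of the genes on the opposite strand that overlap Ciita (Dexi), H2-DMa (Brd2), H2-Oa (BC051537) and H2-Eb1 (Gm20513) cannot be told apart from theirs. Dexi stood at 22.6, 10.9 and 10.1 CPM in the negative and 10.5, 11 and 9.66 CPM in the positive libraries. Brd2 was more abundant than H2-DMa, with a mean over all libraries of 336.6 CPM against 122.4 CPM. The means of BC051537 and Gm20513 were 0.285 and 0.54 CPM. The part of these genes in the counts of the members was not tested.

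B cell markers moved with the B cell type members. Of 12 B cell markers 10 fell and 0 rose by edgeR, where 16.3% of all genes fell and 18.5% rose. The markers had a median log2 fold change of -3.36 and medians of -4.72, -2.54 and -2.76 in pairs 1, 2 and 3. All 12 markers were lower in every positive than in every negative library, against 29.4% of all genes, and none was at 0 in a positive library. Their summed level was 2186 to 6560 CPM in the negative and 264 to 346 CPM in the positive libraries. Cd79a, a signalling chain of the B cell receptor, stood at 1692, 519 and 548 CPM in the negative and 68.3, 71.9 and 64.4 CPM in the positive libraries. The log2 fold change was -3.51 ± 0.48 for Cd79a, -3.42 ± 0.53 for its partner Cd79b and -3.79 ± 0.50 for Ms4a1, which encodes CD20 (edgeR adjusted p from 0.017 to 0.0217). H2-Ob counts per Cd79a count were 0.33, 0.361 and 0.361 in the negative and 0.27, 0.339 and 0.374 in the positive libraries, so they overlapped. Per Cd79b count they were 0.502 to 0.519 and 0.432 to 0.462, which did not. Ciita counts per Cd79a count were 0.174 to 0.198 in the negative and 0.205, 0.402 and 0.441 in the positive libraries. The part of B cell RNA in the levels of the 10 genes was not tested.

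Dendritic cell markers differed among themselves. Of 8 tested 5 fell and 0 rose, where 16.3% of all genes fell and 18.5% rose. The 5 had log2 fold changes from -3.15 to -3.705, and the B cell type members from -3.21 to -3.61. The other 3 markers stood at 0.39 to 0.83 and did not pass the test. The summed level of all 10 listed was 179 to 522 CPM in the negative and 34.5 to 96.2 CPM in the positive libraries. Ccr7 alone held 353, 106.5 and 112.6 CPM in negative replicates 1, 2 and 3, most of those sums. In positive replicate 1 Itgax held most of the 96.2 CPM. Flt3, a growth factor receptor of dendritic cells and progenitors, fell by 3.50 ± 0.23 (edgeR adjusted p = 0.00737). The migration receptor Ccr7 fell by 3.62 ± 0.42 (0.0142) and Dpp4 fell by 3.47 ± 0.47. Cd209a, 1 of the 10, was at 0 in all positive libraries, but it did not pass the filter on low counts. It was not tested, so its 0 is no sign of a fall. Clec9a, which marks cross-presenting dendritic cells, was at 0.161 to 0.661 CPM in every library. Itgax, the CD11c gene, was at 72.3 CPM in positive replicate 1 and at 9.88 to 16.9 CPM in the other 5 libraries. Dendritic cell RNA as a part of the class II levels was not tested.

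Macrophage markers moved the other way, with 6 of 9 higher and 0 lower, against 18.5% and 16.3% of all genes. Their summed levels were 557 to 3851 CPM in the negative and 10100.7 to 11842 CPM in the positive libraries. Mrc1, the mannose receptor, rose by 4.79 ± 0.36, Adgre1, which encodes F4/80, by 2.53 ± 0.21 and the lysosomal protein Cd68 by 4.17 ± 0.53 on the log2 scale. Itgam, which encodes the gated CD11b, did not pass the test (0.79 ± 1.00, edgeR adjusted p = 0.565), with 260 CPM in negative replicate 1 and 1820.4 to 2716 CPM in the other 5 libraries. So the library with the most class II RNA was the one with the least Itgam. Of the neutrophil markers 7 of 8 fell, against 16.3% of all genes, with sums of 263 to 979 CPM left in the positive libraries. S100a9 (-5.75 ± 1.02) and Ngp (-5.54 ± 0.97) were the most abundant, and Retnlg fell by 5.82 ± 0.46. Ly6g (-7.36 ± 1.16), the gene of an antigen gated out per 1 label, where another gives Ly6C, was at 0 in 1 positive library. Of 6 T cell markers 5 fell, against 16.3% of all genes, from sums of 24 to 108.1 CPM to 10.1 to 13.4 CPM. Cd3e fell by 3.12 ± 0.36 and Lck fell by 2.86 ± 0.43, Trac was at 0 in positive replicates 2 and 3, and Cd4 did not pass the test (0.17 ± 1.13). In positive replicates 2 and 3 Cd4 alone held 9.15 and 9.51 CPM, most of the T cell sums there. The part of these cells in the class II levels was not tested.

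The class II genes lie together on chromosome 17, H2-Oa to H2-Eb2 spanning 249 kb, and neighbours in that stretch differed in their changes. H2-DMb2 and H2-DMb1, with under 2 kb between them, had log2 fold changes of -3.21 and 0.29. H2-Ob (-3.61) is followed within 4 kb by H2-Ab1 (-0.69). Of the 9 other genes tested there, 4 fell and 0 rose, where 16.3% of all genes fell and 18.5% rose. Those 4 were H2-Eb2, the antisense gene Gm20513, and 2 genes of class I presentation, Tap2 (-0.63 ± 0.11, edgeR adjusted p = 0.0285) and Psmb9 (-0.60 ± 0.13, edgeR adjusted p = 0.0377). Brd2, a chromatin reader and no antigen presentation gene, stood at -0.18 ± 0.15.

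**Figure D4:**
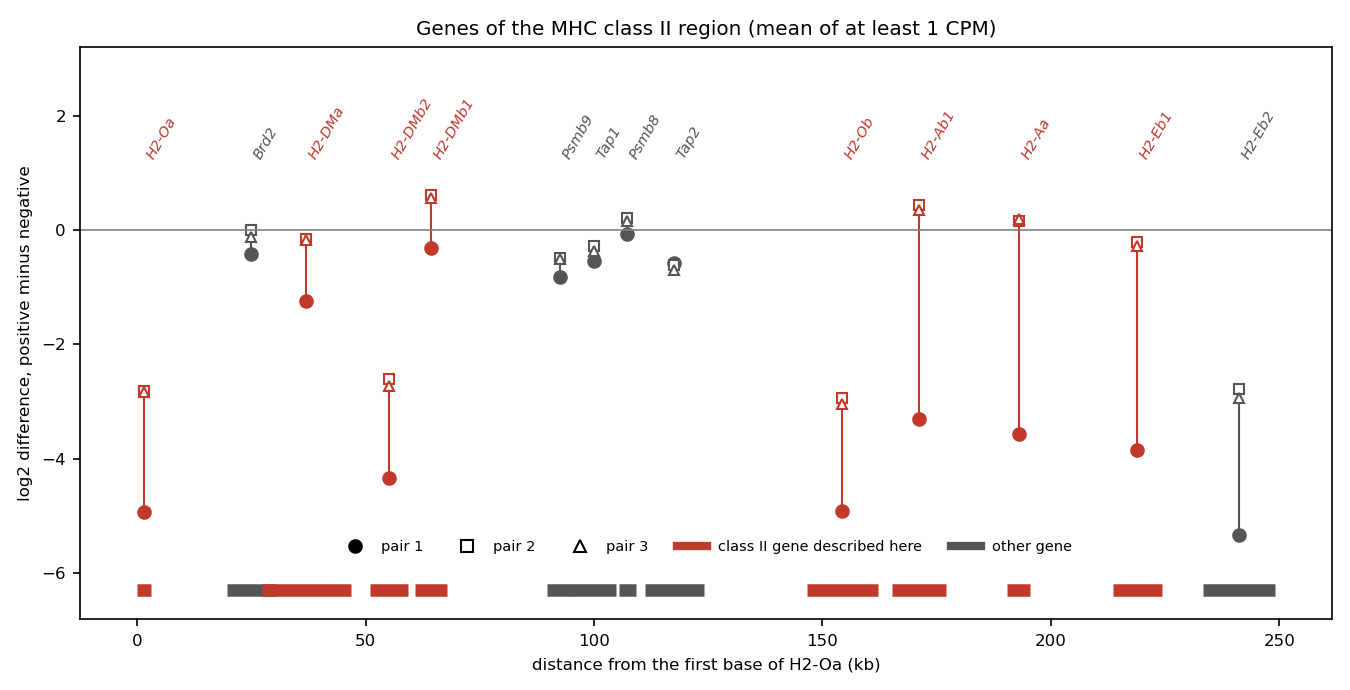
Log2 difference in each pair for genes of the class II stretch of chromosome 17 with a mean of at least 1 CPM, by distance in kb from the first base of H2-Oa; bars at the bottom show each gene's extent. H2-Oa, H2-DMb2, H2-Ob and H2-Eb2 are low in all 3 pairs, while H2-Ab1, H2-Aa and H2-Eb1 are low in pair 1 and near 0 in pairs 2 and 3.

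Of 7 genes of the RFX, NF-Y and CREB complex, which acts on the class II promoters, 1 fell and 0 rose, where 16.3% of all genes fell and 18.5% rose. That 1 was Nfyb, an NF-Y subunit, which fell from 36.2 ± 7.08 to 16.6 ± 0.226 CPM (SD, n = 3; log2 fold change -1.11 ± 0.16, edgeR adjusted p = 0.0201). Rfx5, the DNA-binding RFX subunit, stood at 82.4, 37.4 and 35.2 CPM in the negative and 11.6, 16.6 and 16 CPM in the positive libraries, without overlap, but missed the threshold (-1.69 ± 0.44, edgeR adjusted p = 0.0534). Of 12 genes that induce or repress Ciita 1 rose and 2 fell. Ifngr2, a chain of the interferon-gamma receptor, rose by 0.88 ± 0.18, the kinase Jak2 fell by 1.201 ± 0.117, and Irf4, a factor of B cells and dendritic cells, fell by 3.22 ± 0.48. Prdm1, a repressor of Ciita in plasma cells, did not pass the test (0.62 ± 0.29), nor did Irf1 (-0.27 ± 0.12) or Irf8 (0.28 ± 0.28).

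Most genes that process the invariant chain and antigens rose. Of 10 genes of invariant chain and antigen processing 6 rose and 1 fell, where 18.5% of all genes rose and 16.3% fell. The median log2 fold change of the 10 was 2.25. Ctss, the protease best known for the last cut of the invariant chain, stood at 396, 1010.2 and 996 CPM in the negative and 5434, 6982 and 7651 CPM in the positive libraries. Those groups lay far apart, and the log2 fold change was 3.17 ± 0.35 (edgeR adjusted p = 0.013). Lgmn, or legumain, rose by 3.81 ± 0.32 and Ctsb, or cathepsin B, by 4.65 ± 0.47. Ctse, or cathepsin E, fell by 1.67 ± 0.23. Ctsl (3.14 ± 0.79, edgeR adjusted p = 0.0516), Ifi30, the thiol reductase of the endosome (1.11 ± 0.30, 0.0577), and Sppl2a, which clears the invariant chain stub (0.64 ± 0.17, 0.0571), narrowly missed the threshold. In pair 1 Ctss changed by 3.78 and Cd74, its substrate, by -3.28. In pairs 2 and 3 Ctss changed by 2.79 and 2.94 and Cd74 by 0.35 and 0.27.

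Of 3 regulators of class II at the surface none passed the edgeR test, where 34.9% of all genes did. Of them 1, March8, a ubiquitin ligase, had an unadjusted p under 0.05, as did 7348 of all 14605 genes. March8 stood at 1.45, 10.7 and 11.1 CPM in the negative and 50.5, 40.8 and 38.6 CPM in the positive libraries (2.82 ± 0.86, edgeR adjusted p = 0.0742). Its relative March1, which turns over class II in B cells and dendritic cells, stood at -0.02 ± 0.25. Cd83, which opposes March1, was at 155.8, 54.5 and 57.9 CPM in the negative and 22.4, 38.4 and 38.3 CPM in the positive libraries (-1.26 ± 0.58, edgeR adjusted p = 0.164). Of 3 ligands and co-receptors of Cd74, 1 rose and 0 fell, where 18.5% of all genes rose and 16.3% fell. The cytokine Mif rose by 2.05 ± 0.12 (edgeR adjusted p = 0.00681), while its relative Ddt (0.53 ± 0.15) and the co-receptor Cd44 (0.15 ± 0.52) did not pass.

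Of 14 genes of class I presentation 5 rose, 2 fell and 7 did not pass, where 18.5% of all genes rose and 16.3% fell. Their medians were 0.22, 0.61 and 0.56 in pairs 1, 2 and 3, where the 7 general class II members had -3.30, 0.16 and 0.19. B2m, the light chain of class I, rose by 1.17 ± 0.21, and Calr, a chaperone of its folding, and Erap1, a peptide trimmer, by 1.08 ± 0.16 and 0.72 ± 0.11. Nlrc5, the class I counterpart of Ciita, stood at 168, 60.9 and 60.9 CPM in the negative and 119, 92.6 and 88.9 CPM in the positive libraries (0.22 ± 0.28, edgeR adjusted p = 0.567). The difference between the class I and class II changes was not tested.

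**Figure D5:**
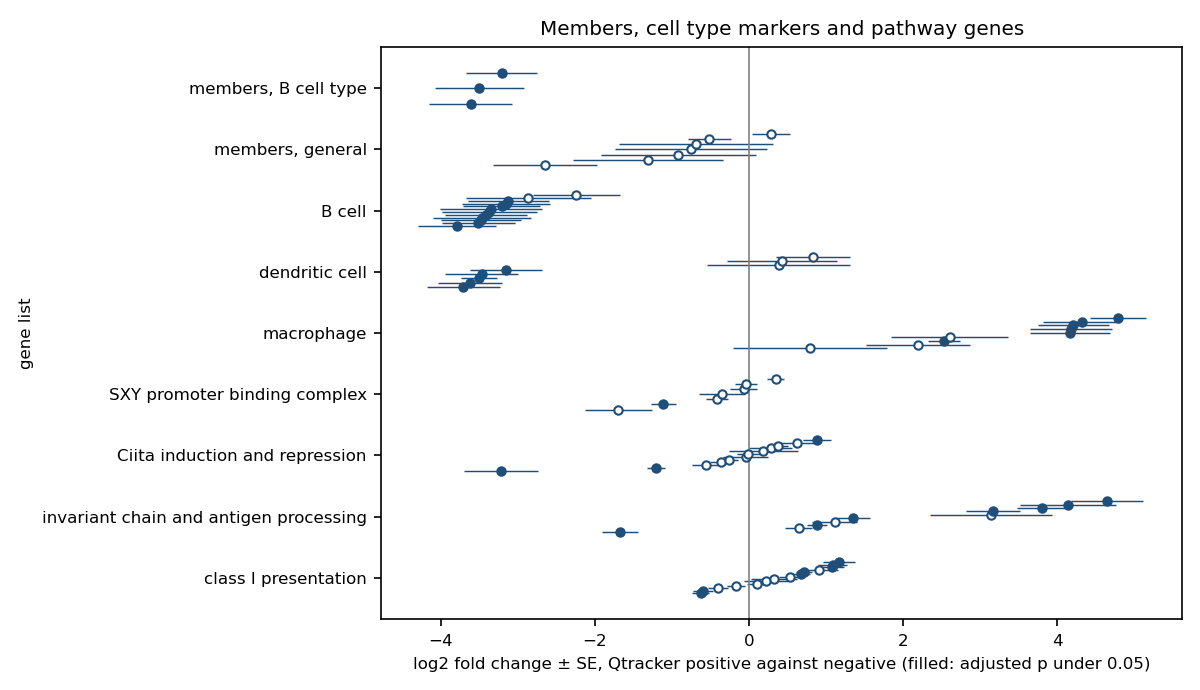
Fitted log2 fold change with its standard error for each gene of the class II members, 3 of the cell type marker lists and the pathway lists of 7 or more genes, with filled points where the adjusted p was under 0.05. The 3 B cell type members lie in the range of the B cell markers and also in that of the 5 dendritic cell markers that fell. The 3 dendritic cell markers that were not called lie above 0. The general members spread from -2.65 to 0.29, and the invariant chain and antigen processing genes lie mostly above 0.

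Per kilobase of merged exons, Cd74 was the highest and Ciita the lowest of the 10 in both groups. Mean levels in the negative group were 2234 ± 1298 CPM per kilobase for Cd74, 608 ± 412 for H2-Eb1, 439 ± 271 for H2-Ab1, 298.6 ± 163 for H2-Aa, 155 ± 107 for H2-DMb2 and 17.5 ± 11.5 for Ciita (SD, n = 3), with H2-Oa, H2-Ob, H2-DMb1 and H2-DMa between 42.9 and 60.2. Cd74 at the top and Ciita at the bottom did not overlap their neighbours, while the ranges of all other neighbours in this order overlapped. Such ranges ignore that all genes were measured in the same libraries. Within each negative library the order Cd74, H2-Eb1, H2-Ab1, H2-Aa, H2-DMb2 held, with the other genes below these. The order of H2-Oa, H2-Ob, H2-DMb1 and H2-DMa varied between the negative libraries. In the positive group Cd74 (1355 ± 842), H2-Ab1 (274 ± 171), H2-Eb1 (233 ± 136) and H2-Aa (168 ± 110 CPM per kilobase) led, and Ciita stood at 2.49 ± 0.889. There H2-DMb1 (53.9 ± 3.39) and H2-DMa (28.1 ± 0.0813) lay above H2-DMb2 (14.4 ± 0.52), H2-Oa (4.76 ± 1.22) and H2-Ob (4.14 ± 0.619 CPM per kilobase). In the positive order the ranges of neighbours overlapped from H2-Ab1 through H2-Eb1 and H2-Aa to H2-DMb1, and between H2-Oa and H2-Ob, but not between the other neighbours. Within each positive library H2-Ab1 was above H2-Eb1 and H2-Eb1 above H2-Aa. H2-DMb1 exceeded H2-Aa, and H2-Ob exceeded H2-Oa, in positive replicate 1 only. With the longest transcript as length, Cd74 was again first and Ciita last, but H2-Ab1 came before H2-Eb1 in the negative group, H2-DMa there came before H2-Oa and H2-DMb1, and H2-Ob came before H2-Oa in both groups. On that length the range of Ciita overlapped that of its neighbour in each group, H2-DMb1 in the negative and H2-Oa in the positive. Within every library of the group, however, Ciita was below that neighbour. H2-Ob and H2-Oa no longer overlapped in the positive group.

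Among 8514 genes with a mean log2 CPM of at least 3, those most like each member over the 6 libraries were found by the root mean square difference of their centred log2 CPM. For H2-Ob they were Ppp1r16b (0.0645), Fcrla (0.083) and Siglecg (0.0864), where the median gene stood at 2 from H2-Ob. Fcrla is also on the B cell marker list. For Ciita they were Bach2 (0.0658), Id3 (0.107) and Trim7 (0.126), and the median gene was 1.59 away. For H2-Ab1 and Cd74 the nearest genes were the same, Tlr9 and Ifi213, and lay farther off (0.278 and 0.361 from H2-Ab1, 0.252 and 0.335 from Cd74), followed by Slc9a7 and Zc3h12d. Tlr9, an endosomal DNA sensor, stood at 140.6, 78.4 and 78 CPM in the negative and 23.4, 78.2 and 72.8 CPM in the positive libraries.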

How the data were processed

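RNA was measured in 6 libraries of sorted mouse spleen cells, in 2 groups of 3. The authors deposited estimated counts per gene as whole numbers, and Salmon, FastQC and mm10 appear without versions in the submitters' processing notes. Salmon gives fractional estimates, and every deposited expected count was whole. The deposited normalized table holds a signal close to the counts whose formula is not stated, used as an alternative with a pseudocount of 1 on the log2 scale. Strand use, annotation release and the authors' filters are not given in the sources used here.

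Positions, lengths, missing symbols and 21 symbols stored in date form came from GENCODE M21 by identifier (21625 of 21847 genes matched), and promoters from RefSeq. The filterByExpr function (minimum count 10, minimum total 15) kept 14605 genes. These were scaled by TMM and tested with edgeR 4.0.16 (quasi-likelihood, replicate number as a block) in R 4.3.3, at an adjusted p under 0.05. Standard errors came from the F statistic, and log2 CPM used a prior count of 2. The block rests on the design text, where the triplicates are called paired. Libraries of the same number deviated from their group means with correlations of 0.198, 0.0769 and 0.157 for replicates 1, 2 and 3, and pairing is not shown by these values alone.

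Alternatives were scaling by upper quartiles, by median-of-ratios factors or by library totals alone, no filter, at least 50 counts in 3 libraries, DESeq2 1.42.0, limma-voom (limma 3.58.1), the authors' normalized values, no block, each replicate left out, replicates 2 and 3 summed, H2-DMb1 and H2-DMb2 summed, and the longest transcript as length. DESeq2 with fewer or summed replicates was added after the data were seen. The test was tried on simulated counts. The members and lists were chosen with earlier results of these data known. Named genes were all members, any measured gene of a pathway list with at least the 2 called genes of lowest p, the 2 most abundant and 2 lowest-p genes of each marker list, and the 3 genes nearest to Ciita, H2-Ab1, Cd74 and H2-Ob. Outside this rule, Cd209a, Clec9a, Itgax, Trac, Gm20513, Dexi and Brd2 were named after their values were seen. Figures were drawn with matplotlib 3.10.9.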

Additional observations from a re-analysis of the deposited data

How the results depend on the processing

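The count of members called lower was 3, or 4 with Ciita, under every scaling, filter and test tried with all 6 libraries kept apart and H2-DMb1 and H2-DMb2 as separate genes, including the fit with no replicate block, where edgeR called 4 lower and 0 higher and the adjusted p was 0.00998 for Ciita. With replicates left out, by edgeR or DESeq2, 0 to 6 members were called lower and 0 to 4 higher, and 0 to 10890 genes in all (8922, 3294 and 3226 by DESeq2 without replicates 1, 2 and 3). With replicates 2 and 3 summed, edgeR called 0 members and 0 genes, with 4488 genes at an unadjusted p under 0.05, and DESeq2 called 5 members lower and 0 higher. Without replicate 3 edgeR had 4209 genes at an unadjusted p under 0.05. Leaving out replicate 1 turned H2-Aa to 0.19 (0.16 by DESeq2), H2-Ab1 to 0.41 (0.38) and Cd74 to 0.32 (0.29). Without replicate 2 or 3 the lowest edgeR values were -1.69, -1.47 and -1.50, and the reversal came with replicate 1 left out, when replicates 2 and 3 were the only libraries. The cause of the other changes was not tested. The B cell type members H2-Oa, H2-Ob and H2-DMb2 and also Ciita, H2-Eb1 and H2-DMa stayed below 0 in every setting run. Ciita ranged from -3.16 to -1.84, and its adjusted p reached 0.109. Depth did not limit these genes, whose lowest library held 179 counts.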
